A study of Mus musculus with 4 samples.

Results

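The 26 genes described here make, load, clear, bind or set the driving force for GABA and glycine, the transmitters of fast inhibition in the spinal cord. They were chosen by function and not by their measured values, and each was found by its gene name among the 30222 gene names of the array, with 41 probes in all. The 4 arrays held RNA from slices of the lumbar spinal cord, segments L4 to L5, taken from male mice of the outbred ICR stock aged 5 to 6 weeks. All mice had a partial sciatic nerve ligation (PSL), a nerve injury that leads to pain hypersensitivity of the hindpaw, and the RNA was prepared on day 7 after it. The ligated mice either had lost their adrenals, the source of corticosterone (ADX+PSL), or had undergone a sham operation (sham+PSL), and tissue of each kind was taken at 2 times of day, ZT10 and ZT22. ZT is the number of hours after lights on, so that ZT10 lies late in the light phase and ZT22 late in the dark phase. ADX mice drank saline throughout, a difference from the sham mice that cannot be told apart from the adrenalectomy. No uninjured mice were among these arrays, so what the injury itself did to these genes was not measured. There was 1 array a condition, and the number of mice behind each RNA and the side of the cord are not given in the sources used here.

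GABA is made from glutamate by the glutamate decarboxylases of *Gad1* and *Gad2*, loaded into vesicles together with glycine by the transporter of *Slc32a1*, and taken up again by transporters of neurons and glia. Fast inhibition passes through GABA-A receptors and glycine receptors, both pentameric chloride channels held at the synapse by gephyrin, and slow inhibition through the metabotropic GABA-B receptor. Chloride flows inward through these channels only as long as the potassium-chloride cotransporter KCC2, the product of *Slc12a5*, keeps chloride in the neuron low. In the dorsal horn, loss of this inhibition after nerve injury is a known route to pain from light touch, which is why these genes are of interest in ligated mice.

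Most of these genes held nearly the same level on all 4 arrays. A level is the intensity of a gene's probe after quantile normalization over the 4 arrays by the authors, in arbitrary units, and a gene with several probes is given by the probe with the highest mean. Of the 26 genes, 25 were well above background on all 4 arrays, by the flag that the scanner software gives each spot, and *Gabrq* on the 2 ZT10 arrays only. Over the 4 arrays, the ratio of the highest to the lowest level was under 1.5 for 23 of these 25 genes (92.0%), against 83.8% of the 19055 genes well above background on all 4 arrays. Its median was 1.24 among the 25 and 1.23 among all. The 2 genes outside were *Slc6a11*, a glial GABA transporter, and *Gabre*, a rare GABA-A subunit. With 1 array a condition there is no spread between replicates, and the error given below is the error that the scanner software estimates for a spot, carried to the log2 ratio of 2 arrays. It was between 0.20 and 0.29 for these 25 genes, and it covers neither mice nor slices. Levels given 4 in a row stand for sham+PSL first, ZT10 before ZT22, and then for ADX+PSL in the same way. In whole tissue, fewer cells of a type and less RNA per cell cannot be told apart.

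**Figure D1:**
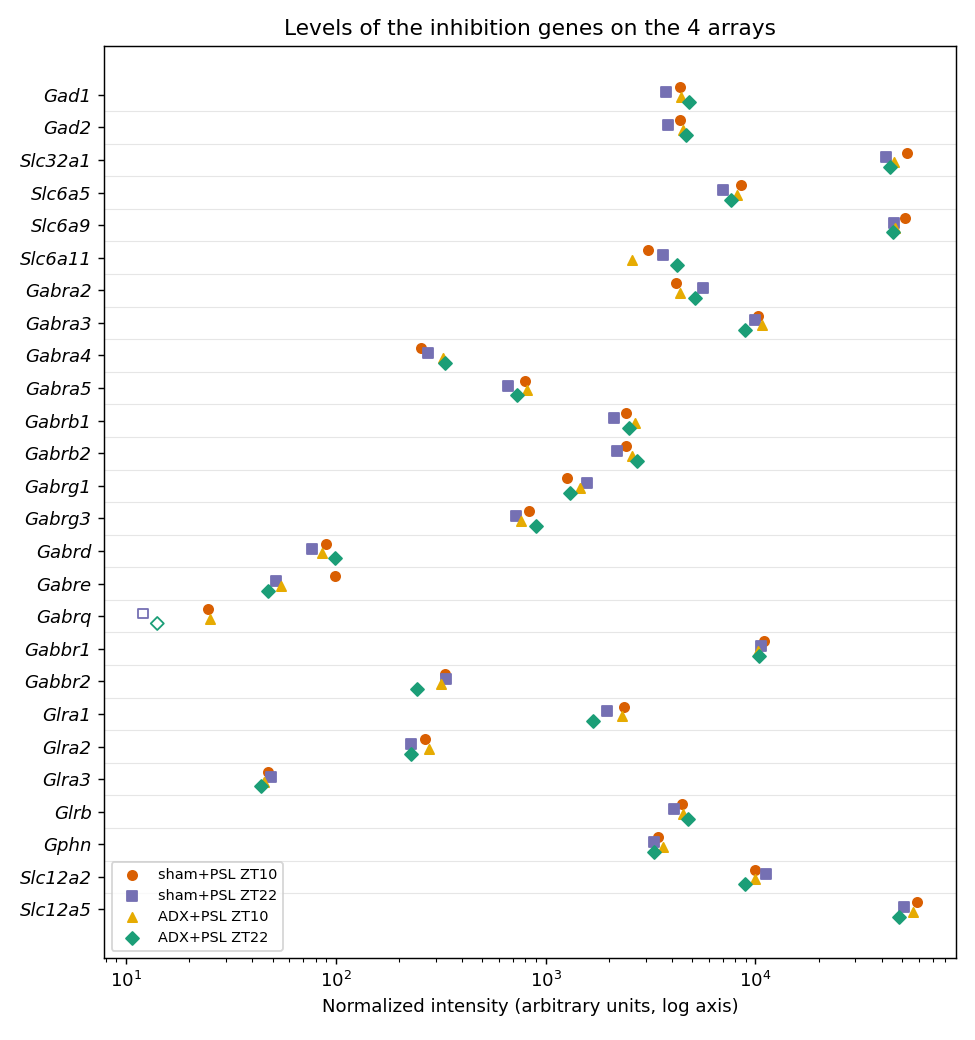
Level of each of the 26 genes (normalized intensity, arbitrary units, log axis) on each array; filled symbols are well above background and open symbols are not. The 4 symbols of most genes lie close together, *Gabre* stands out on the sham+PSL ZT10 array at 98.7 and *Slc6a11* is lowest on the ADX+PSL ZT10 array at 2571. Symbols of different genes come from different probes and are not comparable.

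The tissue and the neurons in it were checked by their marker genes. All 7 *Hox* genes of the lumbar level were well above background on all 4 arrays, though *Hoxd11*, named after its values were seen, was at 738 on the sham+PSL ZT22 array and at 1132 to 1335 on the others, while of the forebrain genes *Emx1* and *Emx2* were so on none, *Tbr1* on 2 and *Neurod6* on all 4. Of the 12 listed markers of inhibitory neurons, 11 were on the array and well above background on all 4. Their median log2 ratio, ZT10 over ZT22, was 0.18 for sham+PSL mice and 0.03 for ADX+PSL mice, and for the operation, ADX+PSL over sham+PSL, it was 0.03 at ZT10 and -0.06 at ZT22. Markers of all neurons had medians between -0.06 and 0.13 in the 4 comparisons. Marker genes of other tissues differed between the arrays. The sham+PSL ZT10 array had a summed level of 2809 over the 7 skeletal muscle genes against 251 to 353 on the others, and the sham+PSL ZT22 array had 18767 over the 6 red blood cell genes against 89810 to 135912. Meningeal fibroblast genes summed to 15795 and 14594 on the sham+PSL arrays and to 4871 and 5368 on the ADX+PSL arrays.

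Late in the light phase against late in the dark phase in mice with adrenals, ZT10 over ZT22 in sham+PSL, 1 of the 25 genes that could be compared differed by 1.5-fold or more. This was *Gabre*, which was higher at ZT10, where 6.67% of all genes tested passed this limit in either direction and 2.63% upward. The median log2 ratio of the 25 was 0.16 and that of all genes 0.00. In ADX+PSL, the same comparison of ZT10 with ZT22 gave 1 gene of 25, *Slc6a11*, which was lower at ZT10, beside 5.14% of all genes in either direction and 3.24% downward. The median was 0.06 for the inhibition genes and -0.00 for all genes. For adrenalectomy, ADX+PSL over sham+PSL, *Gabre* was again the 1 gene of 26 past the limit at ZT10, this time lower, beside 7.1% of all genes in either direction and 3.71% downward, and at ZT22 0 of 25 passed, beside 6.4%. Both calls of *Gabre* use the same sham+PSL ZT10 array. The medians of the inhibition genes were 0.00 and -0.00.

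The limits that the methods of the study set, a Z-score of at least 2 with a ratio of at least 2 or a Z-score of at most -2.0 with a ratio of at most 0.5, were met by 0 of the inhibition genes in each of the 4 comparisons. Among all genes well above background on the brighter array, 4.52% met them for the time of day in sham+PSL and 3.93% in ADX+PSL, and 4.76% met them for the operation at ZT10 and 3.91% at ZT22. An additive limma fit of operation and time of day, 2 arrays against 2 with 1 residual degree of freedom, gave an adjusted p under 0.05 to 0 of the 25 genes for either factor, while 12 of 19055 genes (0.063%) passed for the operation and 7 (0.0367%) for the time of day. At an unadjusted p under 0.05, 0 of the 25 genes passed for the operation, beside 8.71% of all genes, and 4 passed for the time of day, *Slc6a11*, *Gabre*, *Glra1* and *Gabra2*, beside 6.47%. A p above the limit in a fit of 4 arrays does not show that these genes held still.

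**Figure D2:**
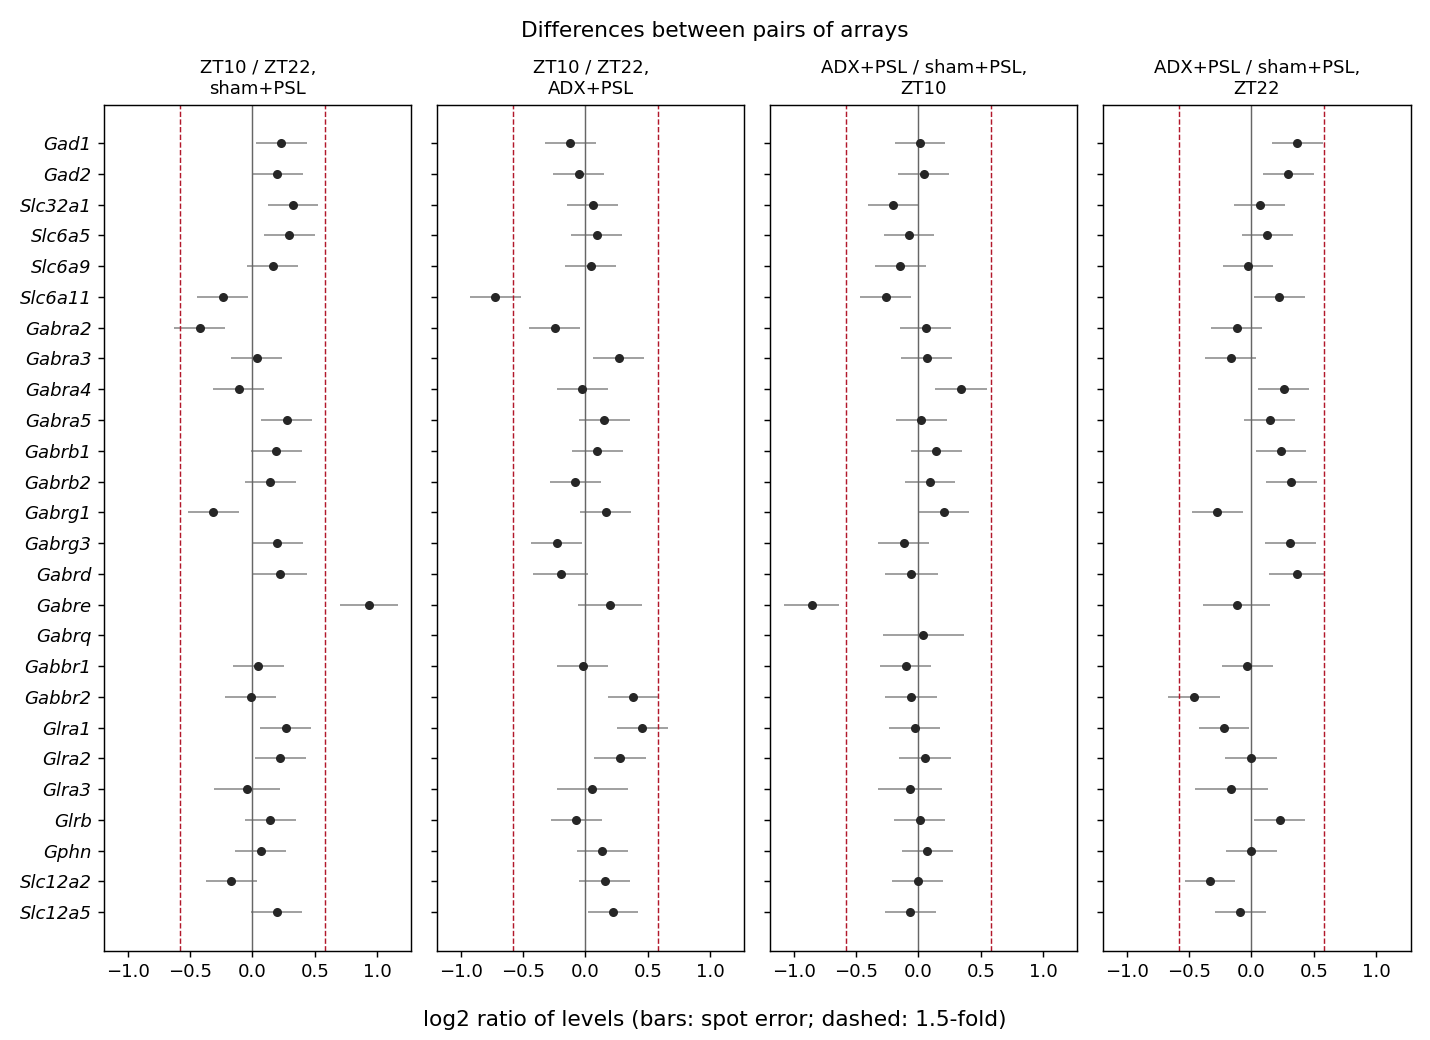
log2 ratio of each gene in the 4 comparisons of 2 arrays (points), with the spot error of the scanner software (bars) and the 1.5-fold limit (dashed lines); pairs with an array not well above background are left blank. Outside the dashed lines lie *Gabre* at 0.93 for time of day in sham+PSL and at -0.86 for the operation at ZT10, and *Slc6a11* at -0.72 for time of day in ADX+PSL.

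The genes that make and load the transmitters differed little. The sham+PSL arrays showed *Gad1*, whose enzyme makes most GABA of the cell body, at 4389 (ZT10) and 3738 (ZT22), and the ADX+PSL arrays at 4427 (ZT10) and 4822 (ZT22). *Gad2*, whose enzyme sits at terminals, had 4392, 3823, 4521 and 4693. Both were lowest in sham+PSL at ZT22 and highest in ADX+PSL at ZT22, so that ADX+PSL over sham+PSL at ZT22 was 1.29-fold for *Gad1* (log2 0.37, spot error 0.20) and 1.23-fold for *Gad2* (log2 0.30, spot error 0.20), and at ZT10 1.01-fold and 1.03-fold. The vesicular transporter gene *Slc32a1* had 52524, 41918, 45691 and 43874. It was highest in sham+PSL at ZT10, 1.25 times its level at ZT22 (log2 0.33, spot error 0.20), and in ADX+PSL the ratio was 1.04. The dimmer second probe of *Slc32a1* gave 1.39 and 1.17 for the same pair of ratios, likewise larger in sham+PSL.

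The order of the arrays that *Gad1* and *Gad2* showed, lowest in sham+PSL at ZT22 and highest in ADX+PSL at ZT22, was shared by *Gabrb2*, *Gabrg3*, *Gabrd* and *Glrb*, each by its chosen probe. These 6 of 25 genes stand beside 10% of all genes, and the order was noticed after the levels were seen. The ratio between the 2 arrays lay between 1.17 (*Glrb*) and 1.29 (*Gad1*), and no gene of the 6 passed 1.5-fold. The sham+PSL ZT22 array, on which they were lowest, also had the lowest summed level of the 7 lumbar *Hox* genes, 7290 against 8355 to 8623. The part of this in the order was not tested. The fit gave *Gad1* a log2 difference of 0.19 for the operation (SE 0.15) with an adjusted p of 0.885 by limma with Benjamini-Hochberg adjustment.

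Uptake of glycine is the work of *Slc6a5*, the transporter of glycinergic terminals that refills their vesicles, and of *Slc6a9*, found mainly on glia. *Slc6a5* had 8582, 6997, 8141 and 7646, and *Slc6a9* had 51457, 45964, 46459 and 45093. In both genes the 2 ZT10 arrays lay above the 2 ZT22 arrays, by 1.23 times in sham+PSL and 1.06 times in ADX+PSL for *Slc6a5*, and by 1.12 and 1.03 times for *Slc6a9*. These are the directions of the deposited table, and the ADX+PSL ratios of both genes turned theirs under another normalization or background correction.

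Uptake of GABA by astrocytes runs through the transporter of *Slc6a11*, which was the gene of uptake with the widest differences. It was read by 1 probe at chr6:114199514-114199573 (mm9, plus strand), of whose 60 bases the first 30 are shown to identify the target.

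*Slc6a11* probe: acagatccctgatgtctgtcactatagaca

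In the sham+PSL cord the *Slc6a11* level was 3081 (ZT10) and 3639 (ZT22), and in the ADX+PSL cord 2571 (ZT10) and 4245 (ZT22). It was lower at ZT10 than at ZT22 in both operations, at 0.847 of the ZT22 level in sham+PSL (log2 -0.24, spot error 0.20) and at 0.606 in ADX+PSL (log2 -0.72, spot error 0.20). The ADX+PSL ratio stayed between 0.606 and 0.655 under the other ways of normalizing or correcting the background. With 1 probe, the choice of probe could not be varied. The difference between the time-of-day log2 ratios of the 2 operations was 0.48 with a spot error of 0.29, with no replicate to test it. The fit gave ZT10 against ZT22 a log2 difference of -0.48 (SE 0.16) with an unadjusted p of 0.031 and an adjusted p of 0.723 by limma with Benjamini-Hochberg adjustment.

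The astrocyte genes followed no common course. All 11 listed astrocyte genes were well above background on all 4 arrays, and their summed level, most of it *Aldoc*, lay between 318987 and 357103. Their median log2 ratio was 0.10 for ZT10 over ZT22 in both operations. Of the 11, 6 were higher at ZT10 in sham+PSL and 8 in ADX+PSL. Single members did vary. *Gfap*, the filament protein of reactive astrocytes, had 15516, 17308, 8565 and 18028, lowest on the ADX+PSL ZT10 array like *Slc6a11*. *Aqp4* was at 0.705 of its ZT22 level at ZT10 in sham+PSL and at 0.836 in ADX+PSL. Like *Slc6a11*, the genes *Gfap*, *Aqp4* and *S100b* were lower at ZT10 in both operations. *Slc4a4*, a bicarbonate cotransporter, had 4885, 3924, 3784 and 2219, lowest on the ADX+PSL ZT22 array, where *Slc6a11* was highest. The brightest, *Aldoc*, was at 206282, 180534, 218576 and 168269, and *S100b* at 63570, 78767, 73103 and 81120. These genes were singled out of the list after their values were seen, apart from the brightest 2, and their part in the *Slc6a11* values was not tested.

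GABA-A receptors are built from alpha, beta and a gamma or rarer subunit, of which the alpha subunit sets much of the response to benzodiazepines. *Gabra2*, the alpha subunit tied to the pain relief by such drugs in the dorsal horn, measured 4195 (ZT10) and 5625 (ZT22) on the sham+PSL arrays, against 4368 (ZT10) and 5176 (ZT22) on those of ADX+PSL. Both ZT10 arrays were thus lower than both ZT22 arrays, at 0.746 of the ZT22 level in sham+PSL (log2 -0.42, spot error 0.20) and 0.844 in ADX+PSL (log2 -0.24, spot error 0.20). A second probe gave 3366, 4625, 3573 and 4527 with ratios of 0.728 and 0.789. The probes lie at chr5:71352275-71352334 and chr5:71352306-71352365 (mm9, minus strand) and have 29 bases in common, so they are no independent readings. The shared stretch is shown since it is what both report.

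*Gabra2* shared bases: tcagctcacttcaatcattggaaactacc

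Only *Slc6a11* and *Gabra2* among the 25 genes had both ZT10 arrays below both ZT22 arrays, beside 15.9% of all genes. By the fit the log2 difference of *Gabra2* was -0.33 (SE 0.13), with an adjusted p of 0.770 by limma with Benjamini-Hochberg adjustment. The other alpha subunit genes followed no common course. *Gabra3* had 10240, 9997, 10709 and 8905, with log2 ratios of ZT10 to ZT22 of 0.03 (sham+PSL) and 0.27 (ADX+PSL). *Gabra5*, whose subunit is mostly found outside synapses, had 800, 661, 813 and 732, higher at ZT10 by 1.21 and 1.11 times. *Gabra4*, also of extrasynaptic receptors, had 256 and 276 in sham+PSL and 324 and 330 in ADX+PSL. It was the alpha subunit gene with the clearest split by operation, higher in ADX+PSL by a log2 ratio of 0.34 at ZT10 (1.27-fold, spot error 0.21) and of 0.26 at ZT22 (spot error 0.21), and the fit gave it 0.30 (SE 0.13) with an adjusted p of 0.606 by limma with Benjamini-Hochberg adjustment.

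The beta subunits carry part of the GABA site. *Gabrb1* had 2405, 2107, 2653 and 2484, and *Gabrb2* had 2416, 2185, 2575 and 2724. For both genes the ADX+PSL arrays lay above the sham+PSL arrays, with log2 ratios of 0.14 and 0.24 for *Gabrb1* and of 0.09 and 0.32 for *Gabrb2* at ZT10 and ZT22. Together with *Gad1*, *Gad2*, *Gabra4* and *Glrb* they made up the 6 of 25 genes with both ADX+PSL arrays higher, beside 19.2% of all genes. The 4 with both ADX+PSL arrays lower were *Gabbr1*, *Gabbr2*, *Glra3* and *Slc12a2*, beside 15.7%. The order of 2 arrays against 2 was met also by genes with differences within the spot error, and under another setting the ZT10 ratio of *Gad1* and *Slc12a2* and both ratios of *Glra3* turned their direction.

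The gamma subunits anchor the receptor at synapses and the delta subunit replaces them outside. *Gabrg1*, the gamma subunit also known from glia, had 1269, 1578, 1462 and 1306. Its adrenalectomy ratio was 1.15 at ZT10 and 0.828 at ZT22. This probe is printed 10 times on an array, and the software flagged 3 of its spots as outliers on the sham+PSL ZT22 array and 1 on the ADX+PSL ZT10 array, while the dimmer second probe had 99.3, 113, 105 and 99.0 with ratios of 1.06 and 0.877. *Gabrg3* had 831, 724, 765 and 898, and its 3 other probes, all dimmer, gave ratios of ZT10 to ZT22 in ADX+PSL of 0.701, 0.667 and 1.82, the last with the ZT22 array not well above background. The 3 probes with both ADX+PSL arrays well above background, the chosen one at 0.852 among them, were thus lower at ZT10. *Gabrd* had 89.4, 76.8, 86.0 and 98.7.

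*Gabre* encodes the epsilon subunit, rare in the central nervous system, which makes receptors insensitive to many anaesthetics. Its levels were 98.7 (ZT10) and 51.7 (ZT22) for sham+PSL, and 54.5 (ZT10) and 47.7 (ZT22) for ADX+PSL. The sham+PSL ZT10 array stood apart from the other 3, which lay between 47.7 and 54.5. ZT10 exceeded ZT22 by 1.91 times in sham+PSL (log2 0.93, spot error 0.23) and by 1.14 times in ADX+PSL (log2 0.19, spot error 0.26), and ADX+PSL over sham+PSL was 0.553 at ZT10 (log2 -0.86, spot error 0.22) and 0.921 at ZT22. With the mean signal and no background correction the first ratio was 1.43 and the ZT10 ratio of the operations 0.735, both inside the 1.5-fold limit, as they were with another background correction. By the fit, ZT10 against ZT22 was 0.56 (SE 0.20) with an unadjusted p of 0.038 and an adjusted p of 0.743, and the operation -0.49 (SE 0.20) with an adjusted p of 0.605, by limma with Benjamini-Hochberg adjustment. The array has 2 probes for *Gabre*, which do not overlap. The one with a signal lies at chrX:69502367-69502426 and the other at chrX:69502778-69502837 (mm9, both minus strand), and on no array was the second well above background. The first 30 bases of both are shown, since 1 probe alone reports the difference.

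*Gabre* probe with a signal: gggtcctcatccttaagtctttaagtcaga

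*Gabre* probe without a signal: tcttcttctttaatgtgctctactggctga

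The array on which *Gabre* was high was also the one with high levels of skeletal muscle genes. On it all 7 skeletal muscle genes were well above background, against 5, 4 and 4 on the others, and *Myh4*, the heavy chain of fast fibres, was at 811 there and at 3.63 to 4.01, not well above background, elsewhere. *Tnni2*, a troponin, was at 681 there and at 105 to 188 elsewhere. The part of this in the *Gabre* values was not tested. *Gabrq*, of the theta subunit, lies near *Gabre* on chromosome X. It had 24.6 and 25.2 on the sham+PSL and ADX+PSL arrays of ZT10, while both ZT22 arrays, at 14.1 or less, did not rise well above background. ZT10 thus exceeded ZT22 at least 1.34-fold in sham+PSL and at least 1.14-fold in ADX+PSL, where the bound sets its level against the lowest level well above background on the dim array. These bounds hold for the deposited table only, as the sham+PSL ratio was 1.13 with normexp background correction.

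**Figure D3:**
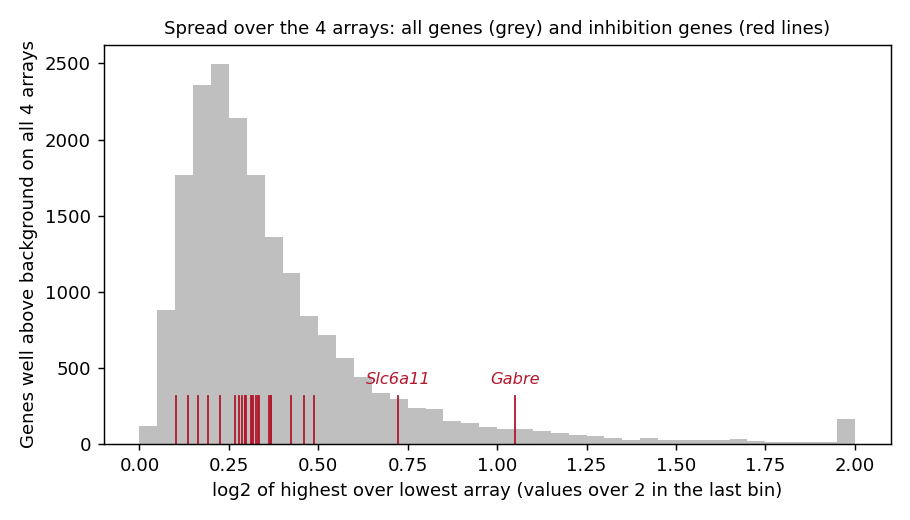
Number of genes (grey bars) by the log2 ratio of the highest to the lowest of the 4 arrays, for the 19055 genes well above background on all of them, with the 25 inhibition genes as red lines. Of the red lines, 23 lie below 1.5-fold, where 83.8% of all genes lie, and *Slc6a11* and *Gabre* lie above it.

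Genes of GABA-A subunits lie in clusters, and the ratios of neighbours are set side by side. By the probe positions, *Gabrg1*, *Gabra2*, *Gabra4* and *Gabrb1* lie in this order on chromosome 5, *Gabrg3* and *Gabra5* on chromosome 7, and *Gabre*, *Gabra3* and *Gabrq* on the X chromosome. On chromosome 5, ZT10 over ZT22 in sham+PSL was 0.804 for *Gabrg1*, 0.746 for *Gabra2*, 0.927 for *Gabra4* and 1.14 for *Gabrb1*. Thus 3 of the 4 were lower at ZT10, while 50.5% of all genes tested were higher. *Gabra4* lay within its spot error (log2 -0.11, spot error 0.21). In ADX+PSL the ratios in the same order were 1.12, 0.844, 0.982 and 1.07, so that *Gabrg1* had the other direction there. On chromosome 7 both genes were higher at ZT10 in sham+PSL, *Gabrg3* at 1.15 and *Gabra5* at 1.21, and in ADX+PSL they were at 0.852 and 1.11. On the X chromosome the sham+PSL ratio in the deposited table was 1.91 for *Gabre*, 1.02 for *Gabra3* and at least 1.34 for *Gabrq*. Under another background setting it fell as low as 1.43 for *Gabre* and 1.13 for *Gabrq*, both close to the background. These are comparisons of ratios, not of levels, between genes.

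The metabotropic GABA-B receptor needs both of its subunits. *Gabbr1* had 11030, 10680, 10285 and 10440, the narrowest range of the 25 genes at 1.07 between highest and lowest. *Gabbr2* had 331, 335, 318 and 243, so that the ADX+PSL ZT22 array was the low one, at 0.727 of sham+PSL at ZT22 (log2 -0.46, spot error 0.21). Its 2 dimmer probes gave 1.06 and 0.943 for that ratio. The low value of *Gabbr2* therefore rests on 1 of 3 probes.

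Glycine receptors of the adult cord consist of the alpha subunits of *Glra1* and *Glra3* with the beta subunit of *Glrb*, while *Glra2* is the fetal form. In mice with adrenals *Glra1* was at 2365 (ZT10) and 1966 (ZT22), and in mice without at 2314 (ZT10) and 1688 (ZT22). Both ZT10 arrays were higher than both ZT22 arrays, by 0.27 on the log2 scale in sham+PSL (spot error 0.20) and by 0.46, or 1.37 times, in ADX+PSL (spot error 0.20). A second probe of *Glra1* had 944, 779, 960 and 748, with ratios of 1.21 and 1.28. Unlike the pair of *Gabra2*, the 2 probes of *Glra1* share no sequence. The brighter lies at chr11:55328315-55328374 and the other at chr11:55349979-55379742 (mm9, both minus strand), where its 60 bases span an intron. The first 30 bases of both are shown because separate stretches of the transcript gave like ratios.

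*Glra1* brighter probe: aacatgttctactggatcatctataagatc

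*Glra1* second probe: acagtttcggttccatcgctgagacaacca

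The fit gave *Glra1* 0.36 for the time of day (SE 0.13), with an unadjusted p of 0.039 and an adjusted p of 0.751 by limma with Benjamini-Hochberg adjustment. *Glra2* ran the same way, with 267, 229, 277 and 229, 1.17 and 1.21 times higher at ZT10. *Glra3* had 47.6, 49.0, 45.4 and 43.8, a range within its spot error of up to 0.29 on the log2 scale. *Glrb* had 4492, 4072, 4529 and 4763 and did not follow *Glra1*, with log2 ratios of ZT10 to ZT22 of 0.14 (sham+PSL) and -0.07 (ADX+PSL). *Gphn*, which encodes gephyrin, the scaffold under both receptor kinds, had 3437, 3286, 3607 and 3285.

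*Glra1* and *Glra2* belonged to the 10 of 25 genes with both ZT10 arrays higher than both ZT22 arrays, beside 17.5% of all genes. The others were *Slc32a1*, *Slc6a5*, *Slc6a9*, *Gabra3*, *Gabra5*, *Gabre*, *Gphn* and *Slc12a5*, each by its chosen probe. Their ratios of ZT10 to ZT22 lay between 1.02 (*Gabra3*) and 1.91 (*Gabre*) in sham+PSL and between 1.03 (*Slc6a9*) and 1.37 (*Glra1*) in ADX+PSL, and the adjusted p of limma for the time of day was 0.743 or more for all 10. Under another setting the direction turned for *Slc6a5* and *Slc6a9* in ADX+PSL and for *Gabra3* in sham+PSL. The inhibitory neuron markers had a median log2 ratio, ZT10 over ZT22, of 0.18 among sham+PSL and 0.03 among ADX+PSL arrays, beside 0.16 and 0.06 for the 25 inhibition genes. Markers of neurons as a whole had 0.03 and 0.13, and the part of either list in the count was not tested.

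Chloride transport sets the sign of the response. *Slc12a5*, the gene of KCC2, was at 58806 (ZT10) and 51349 (ZT22) with the adrenals in place and at 56191 (ZT10) and 48219 (ZT22) without them. ZT10 exceeded ZT22 by 1.15 times in sham+PSL (log2 0.20, spot error 0.20) and 1.17 times in ADX+PSL (log2 0.22, spot error 0.20), and adrenalectomy left ratios of 0.956 and 0.939 at ZT10 and ZT22. *Slc12a2*, the gene of the importer NKCC1, which works against KCC2 and is strong in glia, had 9988, 11240, 9942 and 8924. Its ADX+PSL level was 0.995 of the sham+PSL level at ZT10 and 0.794 at ZT22 (log2 -0.33, spot error 0.20). None of these values of either cotransporter reached 1.5-fold.

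*Slc12a5* was also the 1 gene of the group with an E-box, the clock proteins' site CACGTG, in its promoter sequence. RefSeq promoter sequences (GRCm38.p6, 250 bases before to 50 after a start) matched 23 of the 26 genes with 31 promoters. The E-box was present in 1 of these 31 promoters, beside 7.15% of all 32851 promoters, so the group held no more of them than promoters at large. The 250 bases before the *Slc12a5* start, chr2:164967738-164967987 on the plus strand, are shown with the E-box in capitals, 36 bases before the start. Its part in the *Slc12a5* levels was not tested.

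*Slc12a5* promoter: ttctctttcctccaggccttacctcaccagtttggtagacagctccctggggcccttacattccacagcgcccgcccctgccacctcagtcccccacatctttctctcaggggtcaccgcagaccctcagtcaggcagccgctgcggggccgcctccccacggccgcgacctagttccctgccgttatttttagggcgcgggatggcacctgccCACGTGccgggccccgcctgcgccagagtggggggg

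The full glucocorticoid response element, AGAACA and TGTTCT with any 3 bases between them, was in 0 of the 31 promoters and in 0.00913% of all, and AGAACA alone was in those of *Gabrb2* and *Gabrg1*, beside 19.0% of all. The D-box TTATGTAA and the cAMP response element TGACGTCA were in 0 of the 31, beside 0.938% and 1.79% of all. Both strands were searched, and a match describes letters and not a site in use.

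Of the other genes of inhibition, 37 were listed by function. On both arrays of a pair 33 or 34 of them were well above background, and their median log2 ratios were 0.04 and 0.04 for the time of day and -0.00 and -0.01 for the operation, each pair in the order used above. Past 1.5-fold were 1 of 34 and 0 of 33 for the time of day, beside 6.67% and 5.14% of all genes, and 2 of 33 and 1 of 33 for the operation, beside 7.1% and 6.4%. The brightest 3 were *Gabarapl1*, an escort of receptors to the membrane, *Abat*, which breaks GABA down, and *Glul*, which makes the glutamine that refills GABA neurons. *Abat* had 40252, 38478, 42794 and 36666.

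The widest differences among the 37 were those of 2 further GABA transporters known from the meninges and vessels. *Slc6a13* had 587, 675, 154 and 155, so that ADX+PSL over sham+PSL was 0.263 at ZT10 and 0.230 at ZT22. *Slc6a12* had 30.1 and 113 in sham+PSL and was not well above background in ADX+PSL, which put sham+PSL at least 2.35-fold higher at ZT10 and at least 5.07-fold at ZT22. Meningeal fibroblast genes differed the same way, with a median log2 ratio of -1.63 over 9 genes at ZT10 and -2.20 over 8 at ZT22. The brightest of them, *Dcn*, had 6864, 6121, 2262 and 2580, and *Col1a2* had 4780, 3963, 1672 and 1810. How much of that tissue the slices held was not tested as a part of these values. *Glra4*, a glycine receptor gene near the background, had 27.0, 28.4, 42.3 and 28.3, highest in ADX+PSL at ZT10 at 1.57 times sham+PSL.

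**Figure D4:**
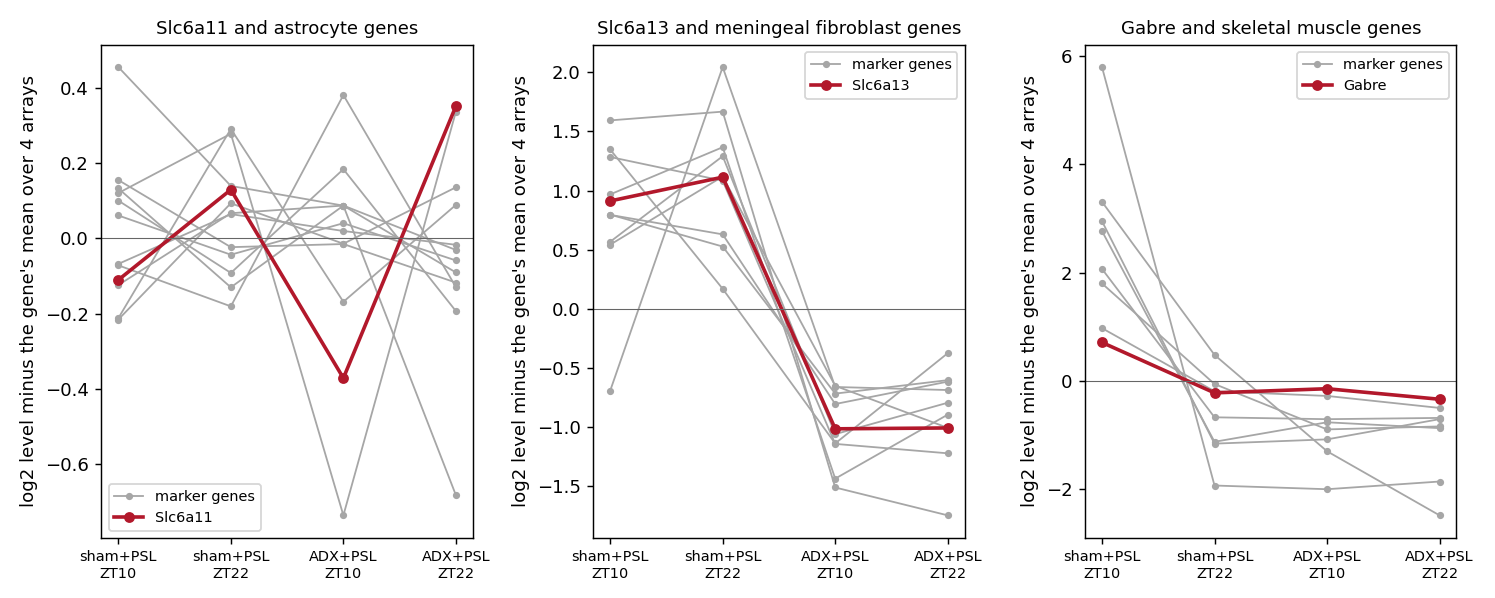
log2 level of a gene minus its mean over the 4 arrays (vertical axis) on each array, for *Slc6a11*, *Slc6a13* and *Gabre* (red) and for each marker gene of astrocytes, meningeal fibroblasts and skeletal muscle (grey), with levels not well above background drawn as measured. *Slc6a13* and 8 of the 9 fibroblast genes lie lower in ADX+PSL at either time (*Slc22a6*, high on the sham+PSL ZT22 array only, is the other), *Gabre* and the muscle genes are highest on the sham+PSL ZT10 array, and the astrocyte genes scatter around *Slc6a11*.

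Among the 11 markers of inhibitory neurons, 2 neuropeptide genes passed 1.5-fold between the times of day, *Gal* in both operations and *Pdyn* in ADX+PSL. That is 1 of 11 in sham+PSL, beside 6.67% of all genes, and 2 of 11 in ADX+PSL, beside 5.14%. *Gal*, which encodes galanin, had 7316, 13046, 7707 and 12442, lower at ZT10 at 0.561 and 0.619 of the ZT22 level. *Pdyn*, which encodes the precursor of dynorphin, had 2872, 3428, 3875 and 2503, with ZT10 over ZT22 at 0.838 in sham+PSL and 1.55 in ADX+PSL. *Pvalb*, of a calcium-binding protein of fast interneurons and the brightest of the list, had 17842, 15166, 17146 and 18166, lowest in sham+PSL at ZT22 and highest in ADX+PSL at ZT22 as *Gad1* and *Gad2* were. Of the other markers in the list only *Nos1* had this order. It was not particular to inhibitory genes, as the excitatory neuron markers *Slc17a6* and *Slc17a8* and the marker of all neurons *Syp* had it too. These further genes were named after their values were seen, and the remaining markers of those lists did not have the order.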

How the data were processed

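The authors hybridized Cy3-labelled cRNA to 1-colour Agilent 44K arrays of 60-base probes, 1 array for each of the 4 conditions, all on 1 slide. The authors deposited spot intensities per array, from Agilent Feature Extraction (9.5.1.1 per the labels and 10.7.1.1 per the file headers), and a table of intensity values on the linear scale, quantile-normalized over the 4 arrays, which gave the levels here. Its log2 values matched a quantile normalization of the processed signals closely. Of 43020 spots that are not controls, making 39429 probes, 0 were saturated, and 65.1% to 70.1% of probes were well above background per array. Precision is limited by the number of arrays.

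Genes were taken by the gene name in the files. Ratios of 2 arrays were given with the spot error. The Z-score was the log2 ratio minus its mean over its SD over all probes. The additive fit used limma 3.58.1 in R 4.3.3, with Benjamini-Hochberg adjustment over 19055 genes, and was tested on simulated data. Other steps used Python 3.11.15, numpy 2.4.6, pandas 2.3.3 and matplotlib 3.10.9. All 26 inhibition genes were named. Of the other 37 genes, those past 1.5-fold and the brightest 3 were named, and of marker lists the brightest 2 and any neuron marker past 1.5-fold, except where a gene is said to be chosen after its values were seen. The members and lists were chosen with earlier results of these data known. Coordinates are those of the probes in mm9 as in the files. Exons and UTRs were not annotated here. The alternatives were 3 normalizations, 2 background corrections, 2 filters, the mean over probes, other limits, the fit with a trend in intensity or with 1 factor only, each array left out, and, chosen after seeing the data, genes with an outlier spot left out.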

Additional observations from a re-analysis of the deposited data

Results flagged for a closer look

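Between single arrays, *Slc6a11* was lower in ADX+PSL than in sham+PSL at ZT10, with a ratio of 0.834, and higher at ZT22, with a ratio of 1.17. The log2 ratio at ZT22, 0.22, was close to its spot error of 0.20 and fell to 0.18 under an alternative, and the spot error covers neither mice nor slices. The difference between the log2 ratios, ZT22 against ZT10, was 0.48 and was not tested, as each condition had 1 array. For *Gabrg1* the ratios were 1.15 and 0.828 and the difference -0.48, likewise not tested, and of the 10 spots of its probe 3 were flagged as outliers on the sham+PSL ZT22 array and 1 on the ADX+PSL ZT10 array.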

How the results depend on the processing

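Of 104 log2 ratios of the 26 genes in the 4 comparisons, 85 kept their direction under each of 6 alternatives of normalization, background and probe, and 41 of 41 over 0.2 in size did so. The mean over probes could not change the ratios of the 15 genes with 1 probe. The count past 1.5-fold for the time of day in sham+PSL, 1 gene, was 0 with normexp background correction, 0 with the mean signal and 0 at a ratio of 2, and 2 with no filter on background (*Gabre*, *Gabrq*). For the time of day in ADX+PSL it was 2 with no filter (*Slc6a11*, *Gabrq*) and 0 at a ratio of 2, and the median log2 ratio of 0.06 became 0.0007 with normexp and -0.004 with the mean signal. For the operation at ZT10 the count of 1 was 0 with normexp, 0 with the mean signal and 0 at a ratio of 2. *Gabre* then had log2 ratios of 0.54 and 0.52 for the time of day in sham+PSL and -0.49 and -0.44 for the operation at ZT10, with normexp and the mean signal. At a ratio of 2 with no Z-score, 1 gene (*Gabrq*) passed for the time of day in sham+PSL in place of 0. Leaving out genes with a flagged outlier spot, an alternative chosen after seeing the data, moved no count. The additive fit called 0 of the 25 genes in every setting, with each array left out in turn from 0 to 0, while its calls among all genes ranged from 0 to 73 for the operation and from 0 to 26 for the time of day. No paired analysis was possible because the labels number no replicates and each condition had 1 array. Under the background corrections, the ratios that moved by more than their spot error were those of *Gabre* and *Gabrq*, both close to the background. *Gabrq* had log2 ratios, ZT10 over ZT22, of 0.17 and 0.20 in sham+PSL and 0.21 and 0.20 in ADX+PSL with normexp and the mean signal.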
